A study of Mus musculus with 4 samples.

Results

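The NF-kappaB genes described here are 10 of the 32285 genes in the tables, chosen by their symbols: the subunit genes Nfkb1, Nfkb2, Rel and Relb, the inhibitor genes Nfkbia, Nfkbib, Nfkbie, Nfkbid and Nfkbiz, and Tnfaip3, which encodes A20. They were read in 4 single-cell RNA libraries from mice made with a droplet kit that captures the 3′ ends of transcripts. The 4 groups, with 1 library each, are ctrl (the control), treatment with 2-Deoxy-D-glucose (2DG), an analogue of glucose that blocks glycolysis and also interferes with N-glycan assembly, the label aPDL1, taken as an antibody against the checkpoint ligand PD-L1, and the combination (2DG_aPDL1). The study's title concerns ovarian tumours and checkpoint blockade, while every library is labelled as lymph node. The labels give no strain, age, sex, dose, time, tumour model or number of pooled animals, although the series' design line speaks of young and aged mice. With 1 library per group no test between treatments is possible, so differences below compare libraries and carry no p-value.

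NF-kappaB is a family of dimeric transcription factors that stay in the cytoplasm while bound by IkappaB proteins. Receptors for tumour necrosis factor, interleukin-1 and microbial products activate the IKK kinases, IkappaB is degraded, and dimers of RelA or c-Rel with p50 enter the nucleus. A slower route through the kinase NIK (gene Map3k14), used by CD40 and the lymphotoxin receptor, processes p100 (gene Nfkb2) to p52, which pairs with RelB. Several of the genes that NF-kappaB switches on encode its own brakes, among them Nfkbia, Nfkbie and Tnfaip3, so their mRNA is widely read as a sign of recent signalling. In myeloid cells the pathway drives inflammatory cytokines and chemokines, and in dendritic cells and lymphocytes it drives maturation, activation and survival.

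The DNA motif that NF-kappaB binds, the 10-letter kappaB consensus, was searched on both strands in RefSeq promoter windows (GRCm38.p6, 250 bases before to 50 after each start). The motif reads nearly the same on both strands, so matches on the 2 strands can overlap. The table held 7 of the 10 genes in 12 windows, without Nfkb1, Relb and Nfkbiz. Matches lay in 8 of those windows and in 6 of the 7 genes, all but Nfkbib. Over all windows of the same length, 2779 of 32851 (8.46%) held a match, and 9.55% of the symbols did. A match describes letters and does not show a bound site. The 150 bases before the start are shown for the 4 genes that the comparisons below turn on, because Nfkbia, Tnfaip3 and Nfkbie encode feedback brakes and Rel separates the dendritic cell types. They are written 5′ to 3′ on the transcribed strand with the matched bases in capitals.
Nfkbia, chr12:55492648-55492797, minus strand: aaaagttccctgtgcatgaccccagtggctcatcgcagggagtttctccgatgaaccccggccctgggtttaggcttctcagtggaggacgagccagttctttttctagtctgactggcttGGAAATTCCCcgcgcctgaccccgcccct
Tnfaip3, chr10:19015411-19015560, minus strand: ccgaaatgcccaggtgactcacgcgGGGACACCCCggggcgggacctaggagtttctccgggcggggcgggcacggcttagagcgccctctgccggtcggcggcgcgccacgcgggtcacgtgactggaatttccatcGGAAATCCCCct
Nfkbie, chr17:45555550-45555699, plus strand: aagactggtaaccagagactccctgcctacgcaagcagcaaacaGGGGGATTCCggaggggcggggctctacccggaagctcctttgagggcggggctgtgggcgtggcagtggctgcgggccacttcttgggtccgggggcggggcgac
Rel, chr11:23770970-23771119, minus strand: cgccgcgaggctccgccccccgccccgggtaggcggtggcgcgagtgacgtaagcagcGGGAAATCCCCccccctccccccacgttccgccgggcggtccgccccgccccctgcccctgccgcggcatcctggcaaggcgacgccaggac
The first matched base lay 29 bases before the start in Nfkbia, 125 and 12 in Tnfaip3, 106 in Nfkbie and 92 in Rel. Nfkb2 and Nfkbid, not printed, also held matches in their windows. In the GENCODE annotation of GRCm38 all 10 genes are protein coding. Nfkbia spans chr12:55489410-55492647, Tnfaip3 chr10:19000910-19015657, Nfkb1 chr3:135584655-135691547 and Relb chr7:19606217-19629438. The 3′ ends of Nfkb2 and Nfkbib are overlapped by the genes Psd and Ccer2 on the opposite strand. No source used here gives the strand setting of the counting, and without it reads of such pairs cannot be told apart.

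The libraries held 8701 to 9948 barcodes and 61859753 to 73885214 UMIs (unique molecular identifiers, counted RNA molecules), with medians of 5632 to 6243 UMIs per barcode. After filters and removal of doublets, 7390 to 8554 cells per library remained, and gates of marker genes placed all but 12.6% to 16.0% of them in a cell type. Of 37911 distinct barcodes, 157 were in more than 1 library. The ctrl library stood apart: it held 2857 neutrophils against 243 to 300 in the others and 118 CD8 T cells against 1312 to 1649. Its monocytes or macrophages had a median of 10267 UMIs per cell against 6708 to 7503. The label lymph node was checked against its stromal markers: Ccl19 had 0 to 2 UMIs and Ccl21a 0 to 1 in a whole library, while Pdpn, which macrophages also express, was in 8.24% to 19.5% of cells. Fibroblast and epithelial markers were in few cells (Epcam in 1.03% to 1.77%). Comparisons that do not use ctrl are the combination against aPDL1 and the combination against 2DG. Each pair shares a library with 2 of the other 3 pairs, so values from such pairs are given side by side and are not independent.

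Levels are UMIs of a gene per 1000000 UMIs of that cell type in that library (CPM), and they are compared for 1 gene across cell types or libraries, never between genes. Intervals are exact 95% intervals that cover counting error only. Among subunits, migratory dendritic cells, the mature Ccr7 cells that carry antigen to lymph nodes, had the highest level of 4 genes in every library. Nfkb1, which encodes p105 and p50, was at 1738 to 2097 CPM there, and the next type, the conventional dendritic cells called cDC2, was at 1140 to 1518 CPM. Neutrophils had the lowest Nfkb1, at 183 to 436 CPM. Relb, the transcriptional partner of p52, was at 527 to 654 CPM in migratory dendritic cells and at 118 to 198 CPM in natural killer (NK) cells, the next in order. The ranges of migratory dendritic cells and the next type did not overlap for Nfkb1, Nfkb2, Rel or Relb.

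Rel, which encodes c-Rel, gave the clearest order of cell types. Migratory dendritic cells were at 1596 to 2183 CPM, cDC2 at 1088 to 1141, B cells at 681 to 897 and cDC1, the cross-presenting conventional dendritic cells, at 542 to 631. None of these neighbouring ranges overlapped. Ranges here and above hold only libraries with at least 50 cells of a type. Those of cDC2 and NK cells lack ctrl (42 and 16 cells), and that of cDC1 lacks the combination (49 cells). Below cDC1, regulatory T cells, monocytes or macrophages, CD4 T cells, neutrophils and NK cells overlapped, and CD8 T cells had the lowest mean, at 173 to 230 CPM. In 2DG alone, NK cells (183 CPM) and CD4 T cells (223 CPM) lay below CD8 T cells (226 CPM). Nfkb2 was at 158 to 249 CPM in migratory dendritic cells and at 98.9 to 141 CPM in regulatory T cells. Rela, encoding the main activating subunit p65, and Bcl3, a nuclear IkappaB protein, had overlapping ranges between every pair of neighbours in their order. Rela was at 59.2 to 99.2 CPM in migratory dendritic cells.

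The inhibitors had 3 patterns across cell types. Nfkbia (IkappaBalpha, the fast feedback inhibitor) was highest in neutrophils, at 2677 to 3741 CPM, with migratory dendritic cells next at 1006 to 1463 CPM. Nfkbiz (IkappaBzeta, a nuclear co-regulator of secondary response genes) was also highest in neutrophils, at 1317 to 2195 CPM, above NK cells at 664 to 1148 CPM. Neither of those ranges overlapped with the next, so the neutrophils of every library exceeded the other types. Nfkbib (IkappaBbeta) followed the subunits, with 141 to 237 CPM in migratory dendritic cells against 59.9 to 103 CPM in cDC2. Nfkbie (IkappaBepsilon) was at 115 to 137 CPM in migratory dendritic cells, a range that overlapped cDC2 at 79.7 to 129 CPM. Nfkbid (IkappaBNS) overlapped between neutrophils, at 124 to 236 CPM, and NK and B cells.

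Tnfaip3, which encodes the ubiquitin-editing enzyme A20 that shuts down signalling at receptor complexes, was highest in T and NK cells. Regulatory T cells were at 1300 to 1620 CPM, CD4 T cells at 1034 to 1653, CD8 T cells at 1002 to 1531 and NK cells at 988 to 1374, all overlapping. Neutrophils, the next type, were at 445 to 911 CPM and did not overlap with any of those 4. B cells were lowest, at 66.6 to 131 CPM. The counts of members highest in every library (5 in migratory dendritic cells, 2 in neutrophils) stayed within 1.5 times under the 8 alternatives in which they were recomputed. Which members they were was not compared. How many of all genes were highest without overlap in these types was not counted, so the counts stand without that share.

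**Figure D1:**
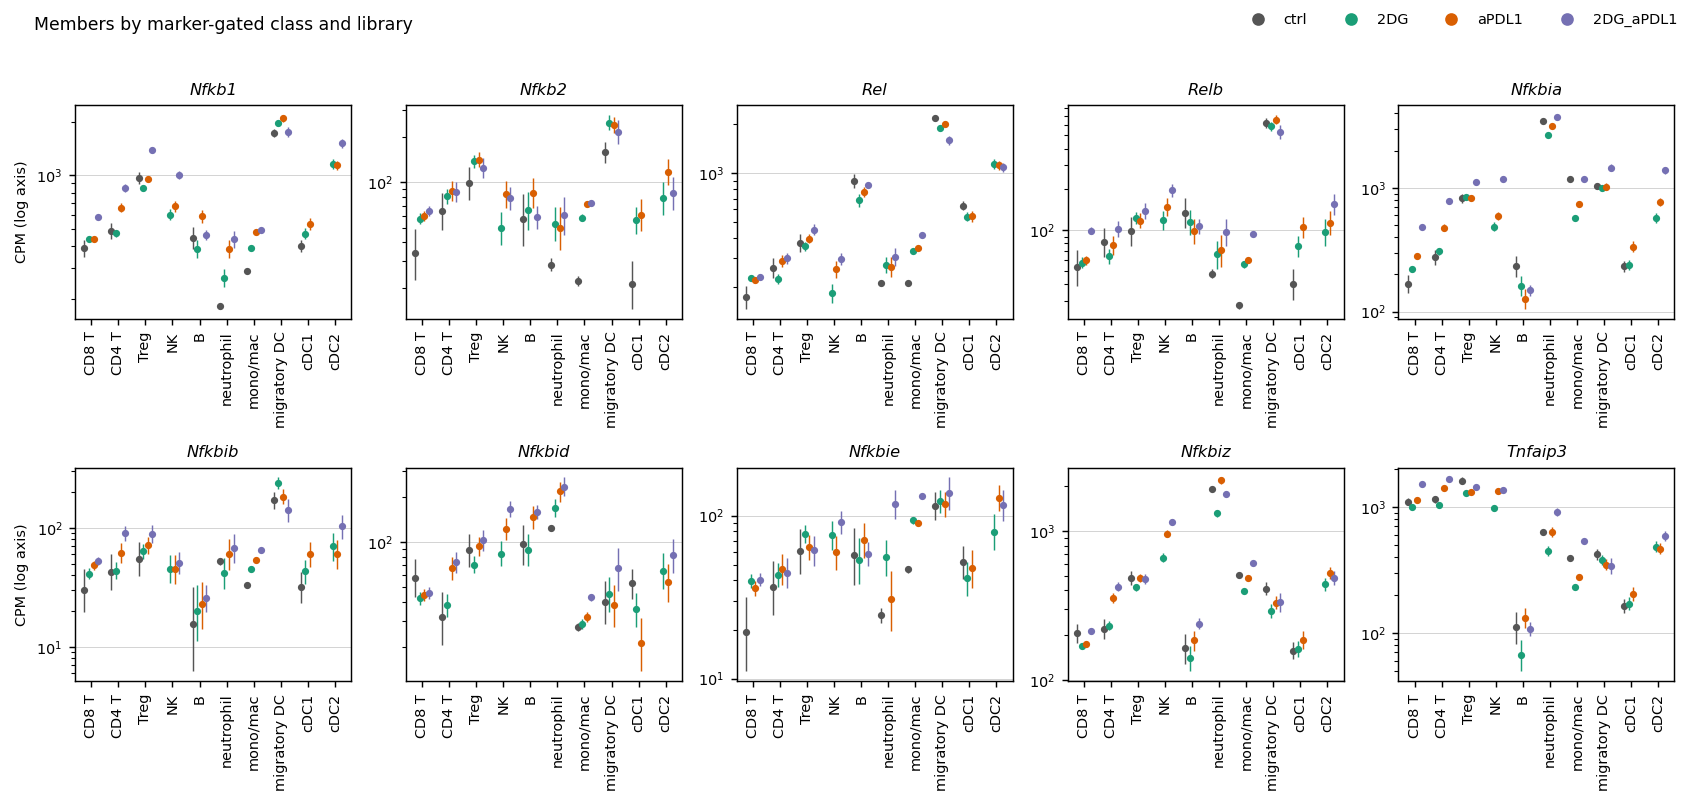
Level of each of the 10 members by cell type, 1 panel per gene; the vertical axis is CPM on a log scale, each point is 1 library (colour) of a type with at least 50 cells, and bars are exact 95% counting intervals. Migratory dendritic cells lie highest for Nfkb1, Nfkb2, Rel, Relb and Nfkbib, and neutrophils for Nfkbia and Nfkbiz (2677 to 3741 CPM for Nfkbia).

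Monocytes or macrophages, with 2696 to 3654 cells per library, had the most cells of any type and showed 2 patterns between treatments. Nfkb2 and its partner Relb were lowest in ctrl. Nfkb2 was at 22.1 CPM in ctrl, 58.1 in 2DG, 71.5 in aPDL1 and 72.9 in the combination. All 3 treated libraries thus lay above ctrl, and the counting intervals of aPDL1 and the combination overlapped (68.2 to 74.9 and 69.7 to 76.1 CPM). On the log2 scale the ratio to ctrl was 1.39 for 2DG (1.26 to 1.52) and 1.69 for aPDL1 (1.57 to 1.82).

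Relb was at 28.0 CPM in ctrl, 56.2 in 2DG, 60.4 in aPDL1 and 94.3 in the combination, so the combination exceeded each single treatment. Its log2 ratio was 0.64 over aPDL1 (0.55 to 0.74) and 0.75 over 2DG (0.65 to 0.85). Over aPDL1 it was under 1.5-fold with a strict gate (at least 4 own markers and 0 of another lineage) and with cells thinned to 2000 UMIs (lowest value 0.52). Nfkb1 was at 289, 391, 482 and 493 CPM in ctrl, 2DG, aPDL1 and the combination, and Rel at 213, 333, 349 and 415 CPM in the same order. The order of those libraries was the same for both, with ctrl lowest. Rela was at 38.5, 57.5, 68.8 and 63.8 CPM and Bcl3 at 42.7, 70.0, 85.4 and 86.8 CPM, again with ctrl lowest.

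Nfkbia and Tnfaip3, the feedback brakes whose promoters are printed above, had another order: low in each single treatment and high in both ctrl and the combination. Nfkbia was at 1181 CPM in ctrl, 572 in 2DG, 739 in aPDL1 and 1175 in the combination. Ctrl and the combination had overlapping counting intervals (1169 to 1192 and 1162 to 1188 CPM), and both single treatments lay far below them. The log2 ratio was −1.05 for 2DG over ctrl (−1.08 to −1.02) and 1.04 for the combination over 2DG (1.01 to 1.07). It was −0.68 for aPDL1 over ctrl (−0.70 to −0.65) and 0.67 for the combination over aPDL1 (0.64 to 0.69). With the macrophage and monocyte subsets weighted alike, aPDL1 over ctrl was −0.46 and no longer reached 1.5-fold.

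Tnfaip3 was at 393 CPM in ctrl, 231 in 2DG, 278 in aPDL1 and 536 in the combination, which here exceeded ctrl. The log2 ratio of the combination was 1.21 over 2DG (1.17 to 1.26) and 0.95 over aPDL1 (0.91 to 0.99). Against ctrl it was −0.76 for 2DG (−0.81 to −0.72) and −0.50 for aPDL1 (−0.54 to −0.46). Nfkbiz was flatter, at 506, 396, 484 and 612 CPM. Nfkbie went with the subunits: 46.8 CPM in ctrl, 93.5 in 2DG, 90.1 in aPDL1 and 132 in the combination. Nfkbib was at 33.1, 45.2, 54.1 and 64.6 CPM and Nfkbid at 27.2, 28.5, 31.7 and 42.9 CPM.

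A gene was counted as different between 2 libraries when it differed by at least 1.5-fold with at least 50 UMIs in the higher one. For 2DG over ctrl, 4 of the 10 members were higher (Nfkb2, Relb, Nfkbie and Rel) and 2 lower (Nfkbia and Tnfaip3), where 14.7% of all genes tested were higher and 9.35% lower. For aPDL1 over ctrl, 6 were higher and 1, Nfkbia, was lower, against 15.4% and 9.45% of all genes. For the combination over aPDL1, 3 were higher (Relb, Nfkbia and Tnfaip3) and 0 lower, against 4.61% and 7.12%. For the combination over 2DG, 5 were higher, those 3 with Nfkbid and Nfkbiz, and 0 lower, against 4.45% and 6.55%. Nfkbid, at 0.59 on the log2 scale, was past 1.5-fold under only 5 of 11 alternatives (0.50 to 0.69). The median log2 ratio of the members was 0.44, 0.71, 0.39 and 0.55 in these 4 pairs, and that of all genes tested was 0.14, 0.13, −0.08 and −0.08.

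Those shares of all genes depended on the scaling. With TMM factors (trimmed mean of M-values, a scaling by genes that vary little), the share of different genes that were higher went from 61.2% to 41.9% for 2DG over ctrl and from 62.0% to 43.9% for aPDL1 over ctrl. It went from 39.3% to 56.0% for the combination over aPDL1 and from 40.4% to 58.9% for the combination over 2DG. The median log2 ratio of all genes tested went from 0.14 to −0.03 for 2DG over ctrl and from 0.13 to −0.04 for aPDL1 over ctrl. The members named above as higher or lower kept their direction under TMM and under median-of-ratios factors. Of the 6 members higher in aPDL1 than in ctrl, however, Nfkb1, Rel and Nfkbib were then under 1.5-fold, and so was Rel in 2DG over ctrl.

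**Figure D2:**
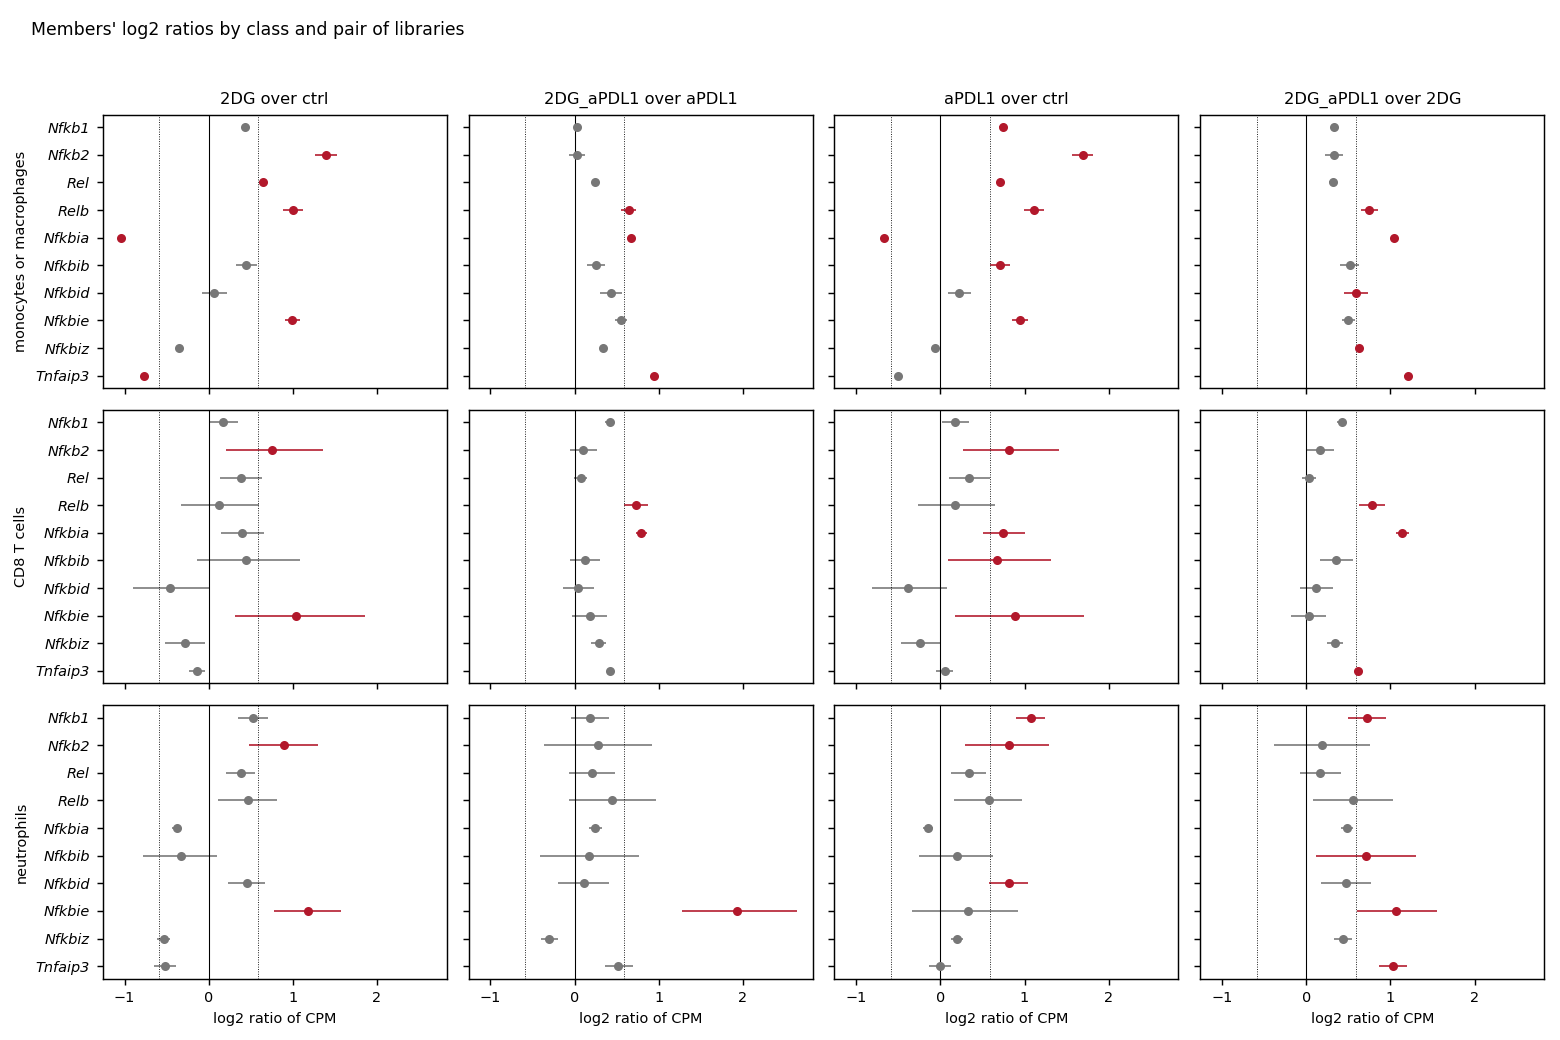
Log2 ratio of CPM of each member in the 4 pairs of libraries (columns), for monocytes or macrophages, CD8 T cells and neutrophils from top to bottom; bars are exact 95% counting intervals, dotted lines mark 1.5-fold and red points pass the size rule. In monocytes or macrophages Nfkbia and Tnfaip3 lie below 0 in both single treatments over ctrl (−1.05 and −0.76 for 2DG) and above 0 in both pairs with the combination.

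The mix of macrophages and monocytes differed between libraries, and the members were therefore read within marker-gated subsets. Macrophages high in Spp1 and Arg1, genes of tumour-associated and wound-repair macrophages, were 63.5% of these cells in ctrl against 24.2% to 29.6% in the others. In that subset Nfkbia was at 1359, 569, 862 and 1093 CPM in ctrl, 2DG, aPDL1 and the combination. C1q macrophages, which clear apoptotic cells, were at 534, 435, 530 and 983 CPM. In C1q cells ctrl and aPDL1 had overlapping intervals (509 to 559 and 508 to 554 CPM), so the high ctrl value of the whole class was not present there.

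Classical Ly6c2 monocytes had Nfkbia at 961, 629, 752 and 1382 CPM and non-classical monocytes at 724, 605, 647 and 1130 CPM, with the combination highest in both. Its log2 ratio for the combination over 2DG was 0.90 to 1.18 across 5 subsets. For 2DG over ctrl the subsets ranged from −0.26 in non-classical monocytes to −1.26 in Spp1 Arg1 macrophages. Tnfaip3 was highest in the combination in all 5 subsets: 548 CPM in C1q and also in Spp1 Arg1 macrophages, 522 in classical and 421 in non-classical monocytes and 622 in the remaining cells. Its log2 ratio over 2DG was 0.90 to 1.49. Nfkb2 was higher in 2DG than in ctrl in each subset, by 0.81 to 1.40 on the log2 scale.

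**Figure D3:**
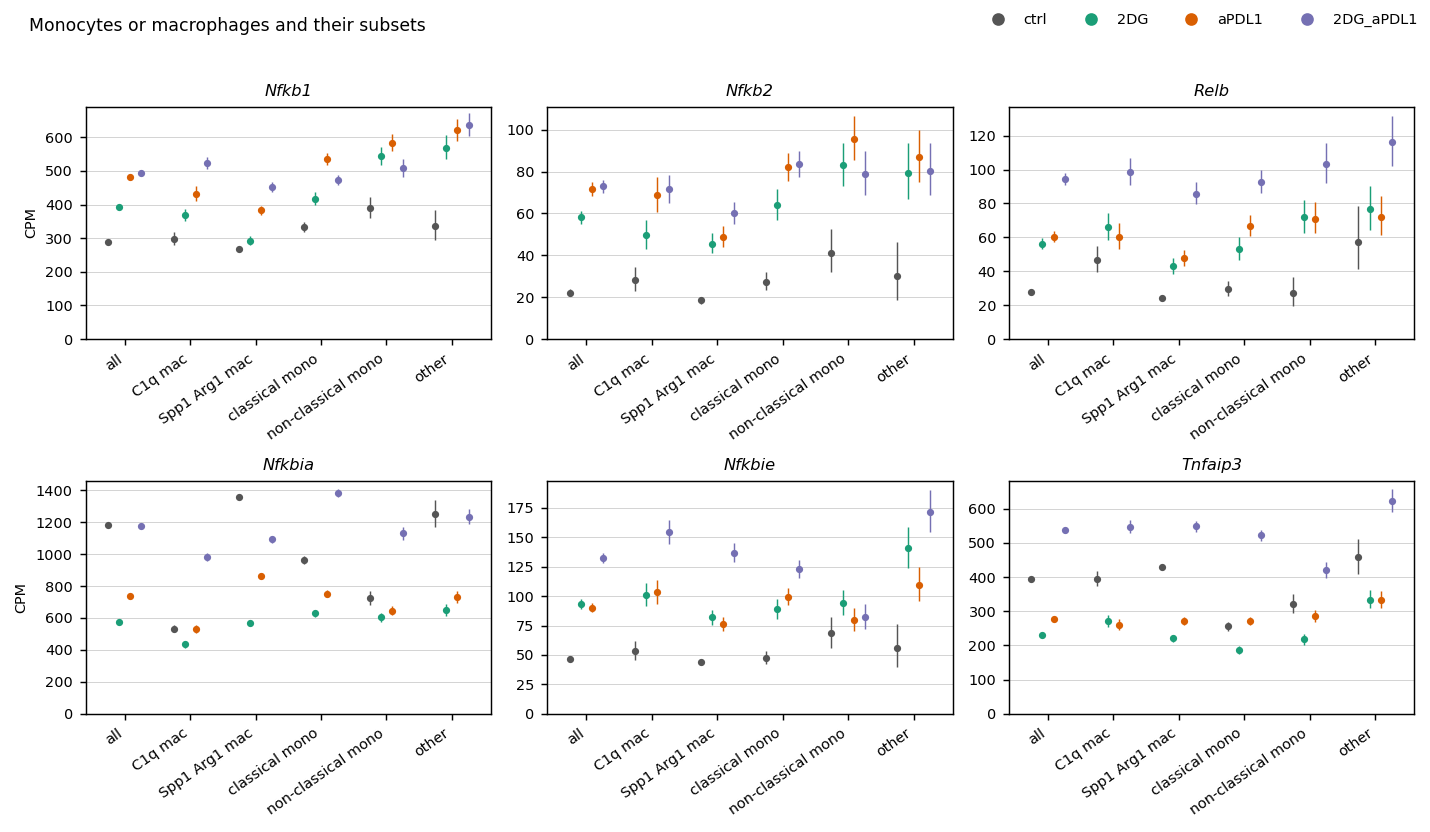
Nfkb1, Nfkb2, Relb, Nfkbia, Nfkbie and Tnfaip3 in all monocytes or macrophages and in their 5 subsets, in CPM on a linear axis from 0, with 1 point per library (colour) and exact 95% counting intervals. For Tnfaip3 the combination is the highest point in every subset (548 CPM in C1q macrophages), and for Nfkb2 ctrl is the lowest.

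Markers of other cell types within the class were also read. All 10 neutrophil markers were detected in monocytes or macrophages of every library, with a summed level of 1003 CPM in ctrl and 412 to 490 CPM in the others. Free RNA at the share that the neutrophil gene S100a8 had in these cells would bring 44.1 CPM of Nfkbia in ctrl, 3.74% of the measured level, and 2.05% of the Tnfaip3 level. In the other libraries it would bring at most 0.162% of Nfkbia.

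CD8 T cells are the killer T cells, and ctrl held few of them. Nfkbia was at 167 CPM in ctrl (138 UMIs in 118 cells, interval 140 to 198), 221 in 2DG, 281 in aPDL1 and 486 in the combination. The libraries' intervals did not overlap, and the combination was highest. The log2 ratio of the combination was 0.79 over aPDL1 (0.73 to 0.86) and 1.14 over 2DG (1.07 to 1.22). Relb was level in the first 3 libraries, at 53.3, 57.9 and 59.9 CPM with overlapping intervals, and at 99.3 CPM in the combination. Tnfaip3 was at 1103, 1002, 1142 and 1531 CPM and Nfkb1 at 388, 438, 438 and 585 CPM, the combination being highest for both. Nfkbie was at 19.4, 39.8, 35.8 and 40.5 CPM, and the ctrl value rests on 16 UMIs. Nfkb2 was at 33.9, 57.4, 59.6 and 64.2 CPM and Nfkbib at 30.3, 41.2, 48.3 and 52.8 CPM. These 3 genes were lowest in ctrl, where each had under 50 UMIs.

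By the same counting rule, 2 members in CD8 T cells were higher and 0 lower in 2DG over ctrl (11.6% and 8.14% of all genes), and 4 were higher and 0 lower in aPDL1 over ctrl (14.1% and 9.23%). For the combination over aPDL1 it was 2 higher, Relb and Nfkbia, and 0 lower (4.80% and 6.07%). Over 2DG it was 3 higher, those with Tnfaip3, and 0 lower (5.27% and 5.17%). TMM factors moved the share of higher among all different genes from 44.2% to 59.1% for the combination over aPDL1, and median-of-ratios factors moved it from 50.5% to 61.7% for the combination over 2DG. Nfkbia in aPDL1 over ctrl was 0.75 on the log2 scale and 0.27 when Leiden clusters replaced the gates.

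Nfkbia was also highest in the combination in CD4 T, regulatory T and NK cells. Gamma-delta T cells, 10 to 32 per library, were too few to read. CD4 T cells were at 274, 307, 476 and 780 CPM in ctrl, 2DG, aPDL1 and the combination. NK cells, of which ctrl had only 16, were at 486 CPM in 2DG, 594 in aPDL1 and 1184 in the combination. Regulatory T cells, which restrain immune responses, were at 828, 845, 837 and 1113 CPM. The first 3 of these libraries were nearly level and the combination lay above them.

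For the combination over 2DG, 7 members were higher in CD4 T cells, where 7.46% of all genes were, and 7 in NK cells, where 6.90% were. In regulatory T cells 1 member, Nfkb1, was higher, beside 4.62% of all genes. Over aPDL1, 1 member was higher in CD4 T cells (6.47% of all genes), 2 in NK cells (7.17%) and 0 in regulatory T cells (4.73%). The member in CD4 T cells was Nfkbia, at 0.71 on the log2 scale, and those in NK cells were Nfkbia, at 0.99, and Nfkbie, at 0.61. In 4 of these pairs a scaling moved the split of all genes by more than 10 points. The share of higher genes over aPDL1 went from 46.5% to 56.8% in CD4 T cells and from 51.3% to 66.0% in NK cells with TMM factors, and from 37.6% to 50.1% in regulatory T cells with median-of-ratios factors. Over 2DG it went from 53.9% to 65.0% in NK cells with TMM factors.

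Among dendritic and B cells the picture was mixed. Nfkbia in cDC2 was at 568 CPM in 2DG, 770 in aPDL1 and 1386 in the combination. Migratory dendritic cells were at 1039, 1006, 1026 and 1463 CPM in the 4 libraries, the combination again highest. Over all members tested there, though, the median log2 ratio of the combination was −0.16 over aPDL1 and −0.16 over 2DG, beside −0.06 and −0.01 for all genes. In B cells Nfkbia was highest in ctrl, at 234 CPM in 63 cells, and at 162, 127 and 148 CPM in 2DG, aPDL1 and the combination. The combination there lay below ctrl and 2DG and above aPDL1.

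Neutrophils rest on 243 to 300 cells in each treated library and on 2857 in ctrl. Nfkbia was at 3479, 2677, 3149 and 3741 CPM in ctrl, 2DG, aPDL1 and the combination, and every library lay above the other cell types. Tnfaip3 was at 636, 445, 634 and 911 CPM, and its log2 ratio for the combination over 2DG was 1.03. Nfkbie was at 24.5, 55.8, 30.7 and 117 CPM. The combination lay above aPDL1 by 1.93 on the log2 scale, with a wide interval of 1.28 to 2.65 since aPDL1 had 24 UMIs. Nfkb1 was at 183, 264, 385 and 436 CPM, ctrl being lowest. The summed level of the 11 monocyte or macrophage markers within neutrophils was 594 CPM in ctrl and 1954 to 2474 CPM in the others, and the part of this in the differences from ctrl was not tested.

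Members higher and lower in neutrophils were 2 and 0 of 10 for 2DG over ctrl, beside 32.9% and 19.0% of all genes. They were 3 and 0 for aPDL1 over ctrl (23.9% and 21.6%), 4 and 0 for the combination over 2DG (10.8% and 9.86%), and 1 and 0 of the 9 tested for the combination over aPDL1 (18.0% and 9.89%). With TMM factors the share of higher among different genes went from 63.4% to 26.7% for 2DG over ctrl, from 52.6% to 20.8% for aPDL1 over ctrl, from 64.6% to 41.9% for the combination over aPDL1 and from 52.2% to 40.9% for the combination over 2DG. The median over all genes went from 0.22 to −0.28 for 2DG over ctrl and from 0.05 to −0.38 for aPDL1 over ctrl. Under that scaling 4 members were lower and 1 higher in 2DG than in ctrl, beside 2993 lower and 1088 higher of all 8217 genes tested. Neutrophil subsets differed too: cells high in Retnlg and Il1r2 were 21.8% of neutrophils in ctrl and 39.5% to 60.3% in the others.

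The rest of the pathway was read from lists of upstream and downstream genes in monocytes or macrophages. Of 7 genes for IKK and its upstream kinases, 2 were higher in 2DG than in ctrl, Map3k14 (NIK, 1.37 on the log2 scale) and Ikbkb (IKKbeta, 0.75). For aPDL1 over ctrl 2 were higher and 0 lower (Map3k14 1.04, Ikbkb 0.74), beside 14.7% and 15.4% of all genes higher in these pairs. Under TMM and median-of-ratios factors Ikbkb was under 1.5-fold in both (0.57 and 0.58 with TMM), which left Map3k14. For the combination 0 of the 7 were higher or lower over either single treatment. Map3k14 was at 129, 103 and 94.0 CPM in 2DG, aPDL1 and the combination, above ctrl in each. Cd40, the receptor that feeds into NIK, was at 17.1, 52.6, 59.2 and 91.1 CPM. Both were lowest in ctrl, as were Nfkb1, Nfkb2, Rel, Relb, Nfkbib, Nfkbie, Rela and Bcl3. Nfkbid was also lowest in ctrl, with 2DG close to it. Chuk (IKKalpha), the other kinase of that route, was nearly level at 45.2, 46.9, 41.7 and 40.2 CPM. Tlr4, the endotoxin receptor, had the opposite order, with 288 CPM in ctrl and 125 to 162 CPM in the treated libraries. The receptor gene Tnfrsf11a was also highest in ctrl, at 85.9, 60.3, 59.0 and 37.5 CPM in ctrl, 2DG, aPDL1 and the combination. Of 12 receptor genes tested 2 were higher and 4 lower in 2DG than in ctrl, beside 14.7% and 9.35% of all genes. In aPDL1 over ctrl 5 of 13 were higher and 1 lower (15.4% and 9.45%). With TMM factors these counts were 1 and 6 for 2DG and 2 and 3 for aPDL1.

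Of 19 adaptor genes 6 were higher in 2DG than in ctrl, among them Traf3 (0.96), Ripk1 (0.90), Myd88 (0.88) and Traf5 (0.84), and 0 were lower, beside 14.7% and 9.35% of all genes. In aPDL1 over ctrl 6 were higher and 0 lower, with Ripk1 at 1.01 (15.4% and 9.45% of all genes), and 4 of these stayed past 1.5-fold with TMM factors. For the combination 3 were higher over aPDL1, led by Birc3 (0.71), which encodes the ubiquitin ligase cIAP2, and 3 over 2DG, led by Traf1 (1.05) and Malt1 (1.02), beside 4.61% and 4.45% of all genes. Of 10 other brakes 3 were higher in 2DG than in ctrl, of which 0 with TMM factors, and 4 in aPDL1, of which 2. For the combination 1 was higher and 1 lower over each single treatment, Tnip3 and Otud7b, and over 2DG 4 were higher with TMM factors. Otud7b, a deubiquitinase, had log2 ratios of −1.23 over aPDL1 and −0.77 over 2DG. Tnip3, an A20-binding partner, was at 130, 179, 163 and 400 CPM in ctrl, 2DG, aPDL1 and the combination. It was 1.29 higher on the log2 scale than in aPDL1 and 1.16 higher than in 2DG. Among ligands, Il1b (interleukin-1beta) was at 676, 762, 828 and 1624 CPM, so the combination stood above the other 3. Il1a was lower than in ctrl by a log2 ratio of −1.89 in 2DG and −1.13 in aPDL1.

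A list of 20 genes known as NF-kappaB targets had 19 tested. For the combination 9 were higher and 0 lower over aPDL1, beside 4.61% and 7.12% of all genes. Over 2DG 13 were higher and 0 lower (4.45% and 6.55%). The medians were 0.58 over aPDL1 and 0.85 over 2DG, beside −0.08 for all genes in both. In 2DG over ctrl 5 were higher and 8 lower (median −0.38 beside 0.14), where 14.7% and 9.35% of all genes were. In aPDL1 over ctrl 5 were higher and 6 lower (median −0.21 beside 0.13), where 15.4% and 9.45% were. The neutrophil-attracting chemokine Cxcl2 was at 4672 CPM in ctrl, 1038 in 2DG, 1730 in aPDL1 and 3123 in the combination. Cxcl1, of the same family, was at 95.7, 14.8, 25.1 and 41.2 CPM. Both were thus low in each single treatment and intermediate in the combination. Ccl4, which attracts T cells, was at 549, 490, 420 and 1109 CPM.

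Ptgs2, which encodes cyclooxygenase-2, was at 593, 90.8, 127 and 195 CPM and Il6 at 99.2, 15.7, 26.6 and 30.7 CPM. In CPM the combination stayed nearer both single treatments than ctrl in these 2 genes, as it did for Cxcl1. Vcam1, an adhesion molecule, had a log2 ratio of −2.78 for aPDL1 over ctrl and 1.02 for the combination over aPDL1. The immediate early genes are those whose mRNA comes and goes soon after stimulation or tissue handling. They had 7 of 9 higher in the combination over 2DG and 4 of 9 over aPDL1, with 0 lower. Of all genes 4.45% and 4.61% were higher in these pairs. Zfp36, whose protein destabilises cytokine mRNA, was 0.99 and 1.54 higher there. Heat shock genes, which also respond to handling, had 3 of 4 lower in the combination over aPDL1 (median −1.15) and 3 of 4 over 2DG (median −1.11). Hspa1b was at −2.35 and −2.42, and 7.12% and 6.55% of all genes were lower in these pairs. The part of these immediate early and heat shock differences in the members' values was not tested.

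**Figure D4:**
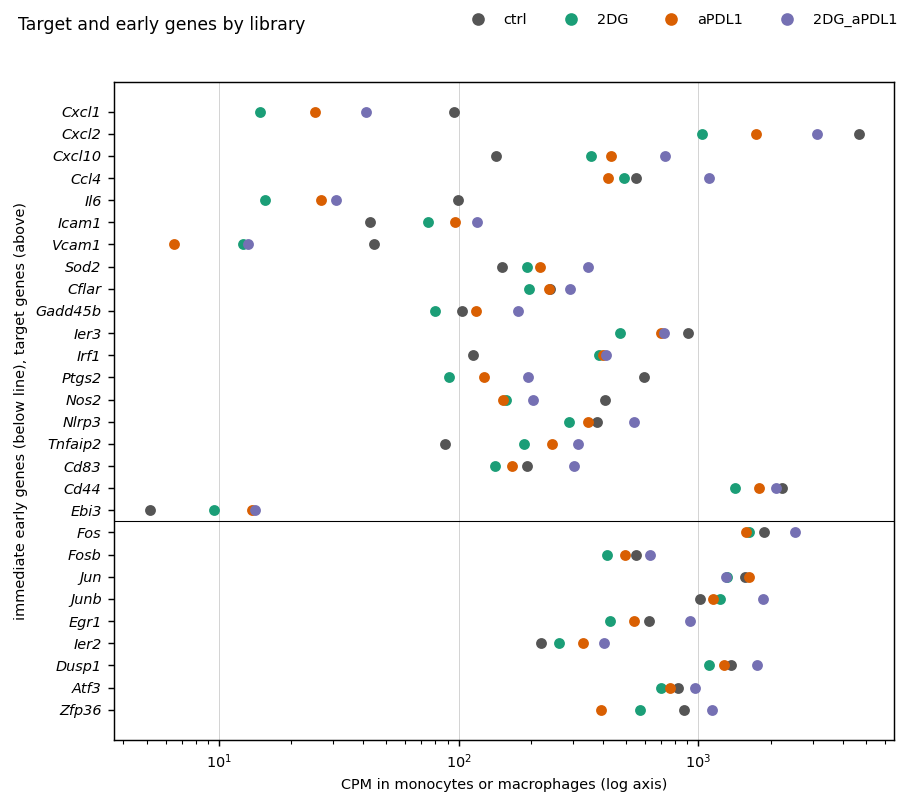
CPM of the 19 tested target genes (above the line) and the 9 immediate early genes (below it) in monocytes or macrophages, on a log axis, with 1 point per library (colour). Cxcl2 and Ptgs2 are highest in ctrl (4672 and 593 CPM), while Ccl4 is highest in the combination (1109 CPM).

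CD8 T cells had fewer of these genes measured. Of 11 target genes tested, 5 were higher and 0 lower in the combination over 2DG, beside 5.27% and 5.17% of all genes. They were led by Cxcl2 (1.61, at 5.28 and 16.2 CPM), Gadd45b (1.02) and Cd44 (0.75). Over aPDL1 1 was higher and 1 lower (4.80% and 6.07%). The macrophage gene C1qb was in CD8 T cells at 0.496% of its macrophage level in 2DG and 0.552% in the combination. Cxcl2 in monocytes or macrophages was at 1038 and 3123 CPM in those libraries. The part of free RNA in the CD8 Cxcl2 values was not tested. Tnfrsf9, the costimulatory receptor 4-1BB, had a log2 ratio of 1.25 over 2DG and 0.60 over aPDL1. Birc3 had 0.90 and 0.98, and Tnip3 0.82 and 1.22, in the same 2 pairs. Immediate early genes had 6 of 9 higher over 2DG and 4 of 9 over aPDL1. Heat shock genes had 4 of 4 lower over 2DG, with Hspa1a at −4.27, and 3 of 4 over aPDL1. The called early genes were thus higher in the combination, as Nfkbia was, and the called heat shock genes were lower. The part of both lists in the Nfkbia value was not tested.

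In neutrophils 10 of 16 target genes tested were higher in the combination over 2DG and 0 lower (median 0.80 beside 0.02 for all genes), led by Cxcl1 (2.22), Ccl4 (1.43), Nos2 (1.42) and Icam1 (1.39). Over aPDL1 it was 7 of 15 higher and 0 lower (median 0.51 beside 0.12), led by Cxcl10 (1.62). Of all genes 10.8% were higher and 9.86% lower over 2DG, and 18.0% and 9.89% over aPDL1. Immediate early genes had 3 of 9 higher and 0 lower in each of these pairs. Heat shock genes had 2 of 3 lower in each, with medians of −0.64 over 2DG and −1.65 over aPDL1. Their part in the members' values was not tested.

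The likeness of patterns was described over 28 points, each a cell type in a library with at least 100 cells. The points share libraries and depth, and 4 of them are from ctrl. Among the members, Nfkb1 and Nfkb2 had a Pearson r of 0.90 on log2(CPM + 1), Nfkb1 and Relb 0.87, and Nfkbia and Nfkbiz 0.89, while Rel and Tnfaip3 had −0.57. Of 5269 genes with enough UMIs, Nfkbia was most like Mxd1 (0.92), Pim1 (0.91) and Dusp1 (0.91), and Nfkbiz most like Maff (0.93), Pim1 (0.91) and Mxd1 (0.89). Tnfaip3 was most like Rab27a (0.93), Rinl (0.91) and Bhlhe40 (0.91). Nfkb1 was most like Tmem123 (0.87), Nfkb2 like Gpr132 (0.87), Rel like Pnpla8 (0.86) and Relb like Cytip (0.84). Nfkbib was most like Il15ra (0.84), Nfkbid like Mirt1 (0.87) and Nfkbie like Epb41l2 (0.72), the lowest of these values.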

How the data were processed

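The deposited matrices hold whole-number UMI counts per gene and cell, made by the authors with Cell Ranger (7.0.0 per the file headers, 3.1.0 and build mm10 per the submitters' processing notes). Cells were kept from 500 detected genes upward and up to 10% mitochondrial UMIs. Scrublet (scanpy 1.11.5) marked 0% of ctrl cells by its own threshold, so its highest scores were removed at 0.8% per 1000 barcodes. A cell type needed at least 3 of its own markers and at most 1 of another lineage. After the counts were seen, markers shared between types were left out of this refusal, among them myeloid, T cell and dendritic markers. With refusal by every marker but S100a8 and S100a9, ctrl held 1247 monocytes or macrophages in place of 3485. Raw UMIs were summed per cell type and library, with exact Poisson and exact conditional binomial 95% intervals. Differences were called at 1.5-fold with at least 50 UMIs. The rule was tested on simulated sums with counting error only and planted 3-fold changes. That does not cover changes near 1.5-fold or variation between libraries. TMM factors came from edgeR 4.0.16. Alternatives were other scalings, filters, gates, doublet removal, clusters, thinning to 2000 UMIs and subset weights. Named genes were all members, Rela and Bcl3, at most 4 called genes of a list per pair with the largest ratios, and the genes most alike in pattern. Chuk, not called in any pair of monocytes or macrophages, was named outside this rule. The members and lists were chosen with earlier results of these data known.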

Additional observations from a re-analysis of the deposited data

Results flagged for a closer look

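For 3 members in monocytes or macrophages the ratio for one agent had opposite signs without and with the other agent. The log2 ratio of Nfkbia for 2DG was −1.0463 over ctrl, without the antibody, and 0.6687 over aPDL1, with it. For aPDL1 it was −0.6755 over ctrl and 1.0396 over 2DG. Tnfaip3 had −0.7628 and 0.9502 for 2DG, and −0.5006 and 1.2124 for aPDL1. Nfkbiz had −0.0656 and 0.6264 for aPDL1, the first of which is under 1.5-fold. Each rests on 1 library per group, and these differences between ratios were not tested.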

How the results depend on the processing

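No paired analysis was possible because each group has 1 library. Of the single ratios of members under the alternatives, 1469 stayed within their counting interval, 411 moved outside it and 0 called ones changed sign. Of the counts of members, 284 stayed within 1.5 times and 48 did not. The cause was not tested. Monocytes or macrophages, aPDL1 over ctrl: 3 higher in place of 6 under TMM and under median-of-ratios factors, and 2 lower in place of 1 under both and under refusal by every marker but S100a8 and S100a9 (added after seeing the data), or 0 with subsets weighted alike. Neutrophils, 2DG over ctrl, higher in place of 2: 1 under both factors, 4 with cells weighted alike, the strict gate, refusal by every marker or thinning, and 6 with the doublet rate raised 2 times; lower in place of 0: 4 under both factors, 2 without doublet removal or with the strict gate and 3 at 1000 genes. Neutrophils, the combination over aPDL1, higher in place of 1: 5 at 1000 genes, 2 with clusters, 3 with subsets alike; over 2DG, in place of 4: 2 with the raised doublet rate, the strict gate or refusal by every marker. Neutrophils, aPDL1 over ctrl, higher in place of 3: 1 under both factors, 5 with the strict gate. CD8 T cells, 2DG over ctrl: 1 higher in place of 2 with the strict gate or thinning, and 1 lower in place of 0 with cells alike or the strict gate; aPDL1 over ctrl, 1 lower in place of 0 with cells alike. CD4 T cells, the combination, higher: over aPDL1 2 in place of 1 under both factors or cells alike, over 2DG 4 in place of 7 with clusters or thinning. Regulatory T cells: over aPDL1 1 in place of 0 under both factors; over 2DG, in place of 1, 2 with cells alike, no doublet removal, the strict gate or clusters and 0 with thinning. NK cells: over aPDL1 1 in place of 2 with refusal by every marker or thinning, over 2DG 4 in place of 7 with the strict gate or thinning. Depth limits ctrl T cells and treated neutrophils, where several members have under 50 UMIs.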
